A study of Rattus norvegicus with 5 samples.

Results

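The nuclear genes of the mitochondrial respiratory chain were examined in rat lung after instillation of urban particles. A gene was included where its single symbol in the array's annotation begins with Nduf, Sdh, Uqcr or Atp5, or with Cox followed by 4, 5, 6 or 7, or is Cycs or Cyc1. This gave 54 of 4736 named genes, read by 96 probe sets: 27 genes of complex I, 2 of complex II, 4 of complex III, 11 of complex IV and 10 of ATP synthase. Cycs, the gene of cytochrome c, was not found under a single symbol. All but Ndufs1 lay above the floor described below on at least 1 array, so 53 genes are counted unless another number is given. The symbol rule also brings in assembly factors (Ndufaf3, Sdhaf2), the pseudogene Cox6c-ps1, and Ndufa4, which is named after complex I but is now known as a subunit of complex IV. The rule itself uses symbols and no measured values.

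Each of 5 pools of lung RNA was put on 1 oligonucleotide array, which makes 1 array for a group. The early array held RNA taken 2, 4 and 6 h after intratracheal instillation of EHC-93, a reference dust collected from city air. The intermediate array held RNA of 15, 18 and 21 h and the late array RNA of 24, 32 and 40 h after the same dust. A sham array held RNA of 2, 15 and 24 h after saline given by the same route, and an untreated array held RNA of 3 rats without instillation. The labels do not state strain, sex, age or dose, or the number of rats behind each instilled pool. Pooling removes the spread between animals, and with 1 array a group there is no replicate error, so differences between single arrays carry no error and no p-value. The 3 exposed arrays are set against the same pair of unexposed arrays, so their differences are not independent.

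The respiratory chain passes electrons from NADH through complex I, or from succinate through complex II, to ubiquinone, then through complex III and cytochrome c to complex IV, where oxygen is reduced to water. Complexes I, III and IV pump protons, and ATP synthase uses the gradient to make ATP. Most subunits are encoded in the nucleus and a few, among them the catalytic core of complex IV, in mitochondrial DNA. Several complex IV subunits exist as tissue isoforms: Cox4i2 is the isoform known for its high level in lung beside the widespread Cox4i1, and Cox6a2 is the isoform of heart and skeletal muscle beside the widespread Cox6a1. Nuclear respiratory factor 1 (NRF-1) is a transcription factor known for sites in promoters of many of these subunits, and MEF2 factors are known for sites in muscle genes.

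Upstream sequences of 3 genes are shown because these genes gave the leading differences below: Atp5po on the early array, Sdha on the late array and Cox6a2 on both. They are RefSeq sequences of the rat build GRCr8, read 5′ to 3′ on the strand of the gene. Those of Atp5po and Sdha end at the base before the annotated start, while that of Cox6a2 stops short of it. Capitals mark the NRF-1 core (GCGCA and GCGC with any 1 base between them) in the first pair and the MEF2 match in the last. Atp5po is on chromosome 11 (chr11:44657484-44657733, minus strand) with 1 core beginning 59 bases before the start, and Sdha is on chromosome 1 (chr1:30764303-30764552, plus strand) with 2 cores beginning 89 and 46 bases before it. For Cox6a2, 30 bases are given (chr1:192219747-192219776, minus strand), with a MEF2 match beginning 50 bases before the start. RefSeq's span of the Cox6a2 gene extends upstream of this start, so the window is not wholly outside the gene.
Atp5po: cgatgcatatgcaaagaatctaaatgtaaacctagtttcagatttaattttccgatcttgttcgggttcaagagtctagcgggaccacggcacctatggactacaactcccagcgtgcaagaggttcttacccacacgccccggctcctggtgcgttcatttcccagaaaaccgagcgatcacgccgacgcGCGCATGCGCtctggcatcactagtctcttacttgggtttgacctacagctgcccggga
Sdha: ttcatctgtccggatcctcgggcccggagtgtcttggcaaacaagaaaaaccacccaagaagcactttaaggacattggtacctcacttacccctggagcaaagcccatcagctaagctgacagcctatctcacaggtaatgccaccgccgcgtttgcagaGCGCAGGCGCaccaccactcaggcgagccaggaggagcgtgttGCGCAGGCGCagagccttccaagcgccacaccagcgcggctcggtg
Cox6a2: gagaaagtccCTAAAAATAGccatccatgt
Promoters were matched for 45 of the 54 genes. The NRF-1 core, on either strand of the 250 bases, was present in 5 of the 45 (Atp5po, Ndufa5, Ndufs6, Ndufv3 and Sdha), or 11.1%, against 4.17% of 27457 RefSeq promoters and 7.21% of 3008 promoters of genes on the array. At least 2 cores, as in Sdha, were found in 0.535% of all promoters. The MEF2 match was present in 1 of the 45, Cox6a2, and in 0.572% of all promoters, and neither the NRF-1 core nor the ETS core CCGGAAG was found in the Cox6a2 window. These are matches of letters and not measured sites.

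Deposited intensities were scaled to a common median, with factors from 0.931 (sham) to 1.07 (intermediate), and values under 172.53, the 40th percentile of all scaled values, were set to that floor before log2 was taken. Each gene was read by its probe set with the highest mean. Intensities of different probe sets cannot be set against each other as amounts. Most of the 53 genes were bright: 43 lay among the 917 brightest of the 3667 genes above the floor, that is above their 75th percentile of mean level. Where 5 values follow each other below, they stand in the order early, intermediate, late, sham, untreated. The 5′ to 3′ signal ratio, a measure of how complete the labelled copies are, was 43.1%, 9.07%, 19.6%, 14.7% and 24.4% for beta-actin and 67.2%, 23.6%, 38.1%, 25.4% and 39.1% for GAPDH. Both ratios peaked in the early pool and were smallest in the intermediate pool. The tissue label was borne out by surfactant genes, with Sftpc at 48085 to 71970 on the 5 arrays. Macrophage markers of the list used (0 of 5) were not measured as named genes.

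Early after the dust, respiratory chain genes as a group read lower than in both unexposed pools, by small amounts. Of 53 genes 42 (79.2%) were lower than both unexposed arrays, against 32.2% of all 3667 genes, and 3 (5.66%) were higher than both, against 33.4%. The median log2 difference from the mean of the unexposed arrays was -0.30, with single genes between -0.96 and 0.41, against -0.01 over all genes. In linear terms the median gene stood at 81.5% of the unexposed level. No gene was 2-fold lower (background 0.3%) or 2-fold higher (2.54%) than both, and at 1.5-fold 3 were lower, namely Atp5po, Atp5f1e and Cox6a2 (background 2.97%), and none higher (6.84%). Among the 917 brightest genes, 37 of 43 respiratory chain genes (86.0%) were lower than both unexposed arrays, against 40.2% of the 917. In lung RNA, fewer cells of a type and less RNA per cell cannot be told apart. The unexposed arrays differed from each other in the same direction: 45 of 53 genes (84.9%) were lower in the sham pool than in the untreated pool, against 54.4% of all genes, with a median of -0.19 against -0.04. None of the 53 was 2-fold higher (background 1.55%) or lower (1.61%), or 1.5-fold higher (6.44%) or lower (7.5%), in the sham pool than in the untreated pool. Against the sham array alone, 42 of 53 genes were lower in the early pool (79.2%, against 45.4% of all genes) and the median was -0.18, and against the untreated array alone -0.37. The distance from early to sham was thus about as large as that from sham to untreated.

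**Figure D1:**
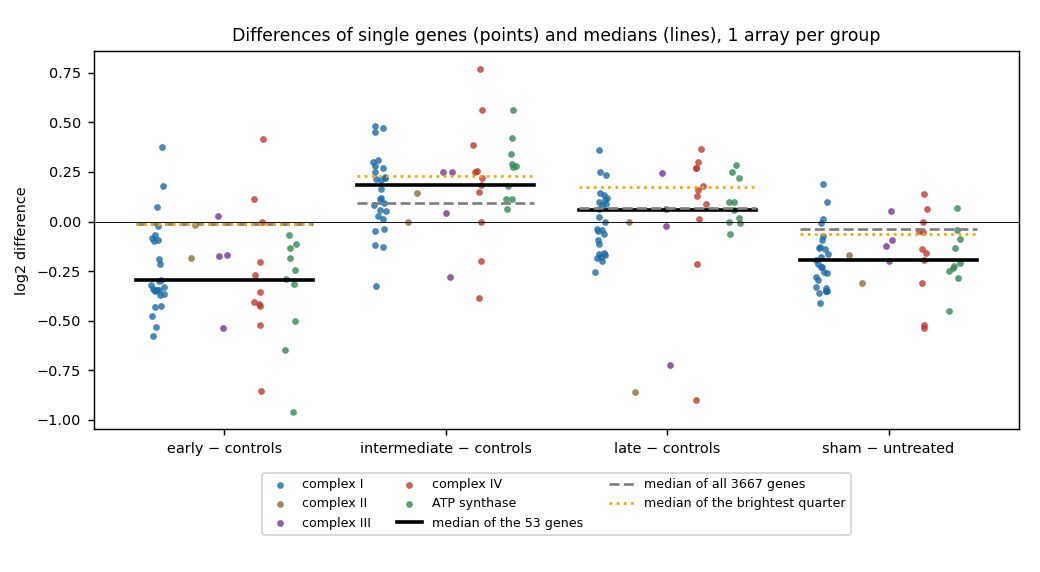
Log2 differences of the 53 respiratory chain genes (points, coloured by complex) of each exposed array from the mean of the sham and untreated arrays, and of sham from untreated; the vertical axis is in log2 units, with lines at the median of these genes, of all 3667 genes and of the brightest 917 of them, and 1 array per group. The early points centre on -0.30 while all genes centre on -0.01, the sham points centre on -0.19, and the sign of the intermediate (0.18) and late (0.06) medians turns to -0.02 and -0.08 with quantile normalization.

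In complex I, which takes electrons from NADH, 21 of 26 genes were lower on the early array than on both unexposed arrays. The share was 32.2% over all genes and 40.2% over the 917 brightest. The median difference of the complex I genes was -0.32. Ndufb1, an accessory subunit of the membrane arm, read 1291, 1762, 1617, 1923 and 1932. All 3 exposed values lay under both unexposed ones, which were nearly equal. Ndufb10, of the same arm, read 1480, 2232, 1891, 1895 and 2419 (early difference -0.53). Of the iron-sulfur subunits that carry electrons, Ndufs7 read 2446, 3365, 3194, 2984 and 3655, with an early difference of -0.43, and Ndufs8 read 2458, 3320, 3035, 2890 and 3390, with -0.35. For both, the early array was the lowest of the 5 and the untreated array the highest. Other probe sets of Ndufs8 above the floor were lowest on the late or intermediate array, with early differences of 0.0013 and -0.06. Ndufv2, another iron-sulfur subunit, went the other way and read 2170, 2275, 1792, 1749 and 2094. Ndufa4l2, a paralog of Ndufa4 known as a gene induced in low oxygen, read 968 and 958 on the early and late arrays and 595 on the intermediate array, against 726 and 765. It was the highest of the complex I genes on the early array, at 0.38, and the lowest on the intermediate array, at -0.32. Its 4 other probe sets had the same signs on the early (0.31 to 0.60) and intermediate (-0.70 to -0.30) arrays. On the late array they gave -0.47, -0.01, 0.07 and 0.10 against 0.36 for the main one, so its late value was not matched. These probe sets belong to a type that can be shared within a sequence family, so its identity is uncertain. Ndufs1, the largest subunit of the complex, lay under the floor on every array and has no measured difference.

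Complexes II and III were sparsely measured, with 1 of 2 and 3 of 4 genes lower on the early array than on both unexposed arrays (all genes 32.2%). Sdha, the flavoprotein that oxidises succinate, read 3440 on the early array against 3501 and 4347, and Sdhaf2, which helps attach its flavin, read 1089 against 1040 and 1168, inside the unexposed pair. In complex III the Rieske iron-sulfur protein Uqcrfs1 read 5527, 7395, 7374, 5812 and 6678, and the small subunit Uqcr11 read 5316, 6148, 6233, 5781 and 6164. Both were lowest on the early array by their main probe sets, by -0.17 from the unexposed mean. Other probe sets of Uqcrfs1 gave early differences of 0.08, with sham the lowest array, and -0.47. Cytochrome c1, Cyc1, read 3044, 3551, 2945, 2866 and 3117 and lay between the unexposed arrays in the early and late pools.

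In complex IV, where oxygen is reduced, 8 of 11 genes were lower on the early array than on both unexposed arrays (all genes 32.2%). The median difference was -0.36. Cox4i1, the widespread form of the subunit that regulates the enzyme by ATP, read 17267, 32708, 26703, 20662 and 23661. Cox5b read 3283, 5091, 4967, 4172 and 4597, and Cox6b1, which faces the cytochrome c side, read 6727, 11526, 10284, 9522 and 9825. By the main probe sets of these 3 genes, the early array was the lowest and the intermediate array the highest of the 5. The other probe sets of Cox5b and Cox6b1 were also lowest on the early array, but highest on the untreated array. Their intermediate differences were -0.08 and -0.04. A dimmer probe set of Cox4i1 read 3865, 3584, 3998, 3416 and 3316, lowest on the untreated and highest on the late array. The remaining probe set of Cox4i1 was lowest on the early and highest on the intermediate array. Cox7b read 1756, 2244, 2260, 1817 and 2256. Cox7a2l, a factor that helps join complexes III and IV, read 3350, 5109, 4920, 4259 and 4758, a difference of -0.43 on the early array, but the mean over its probe sets gave 0.04. Cox5a lay close to the floor, at 129, 175, 230, 239 and 218, the first of these under it. Cox6c-ps1 passed the floor on the late array alone, at 208.

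In ATP synthase 9 of 10 genes were lower on the early array than on both unexposed arrays (all genes 32.2%). The early array was the lowest of the 5 for those 9 (all genes 23.3%), and the median difference was -0.26. Atp5po, the stalk protein that holds the catalytic head to the membrane part, read 5159, 13457, 10451, 9330 and 10790. The early value was 55.3% of sham and 47.8% of untreated, and the spread over the 5 arrays, 2.61-fold, was the widest of the 53 genes. Atp5f1e, the epsilon subunit of the rotating stalk, read 7370 on the early array against 11830 and 11297, and 14140 and 13756 on the later arrays. The catalytic subunits differed less: Atp5f1b read 11379 on the early array against 11920 and 13079, a difference of -0.13, and Atp5f1a read 2723 against 2955 and 3509, a difference of -0.24. Atp5if1, the inhibitor that stops the enzyme from running backwards, read 1507, 3154, 2603, 1973 and 2306. Atp5pb was the exception, at 3764 on the early array between 3633 and 4280.

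**Figure D2:**
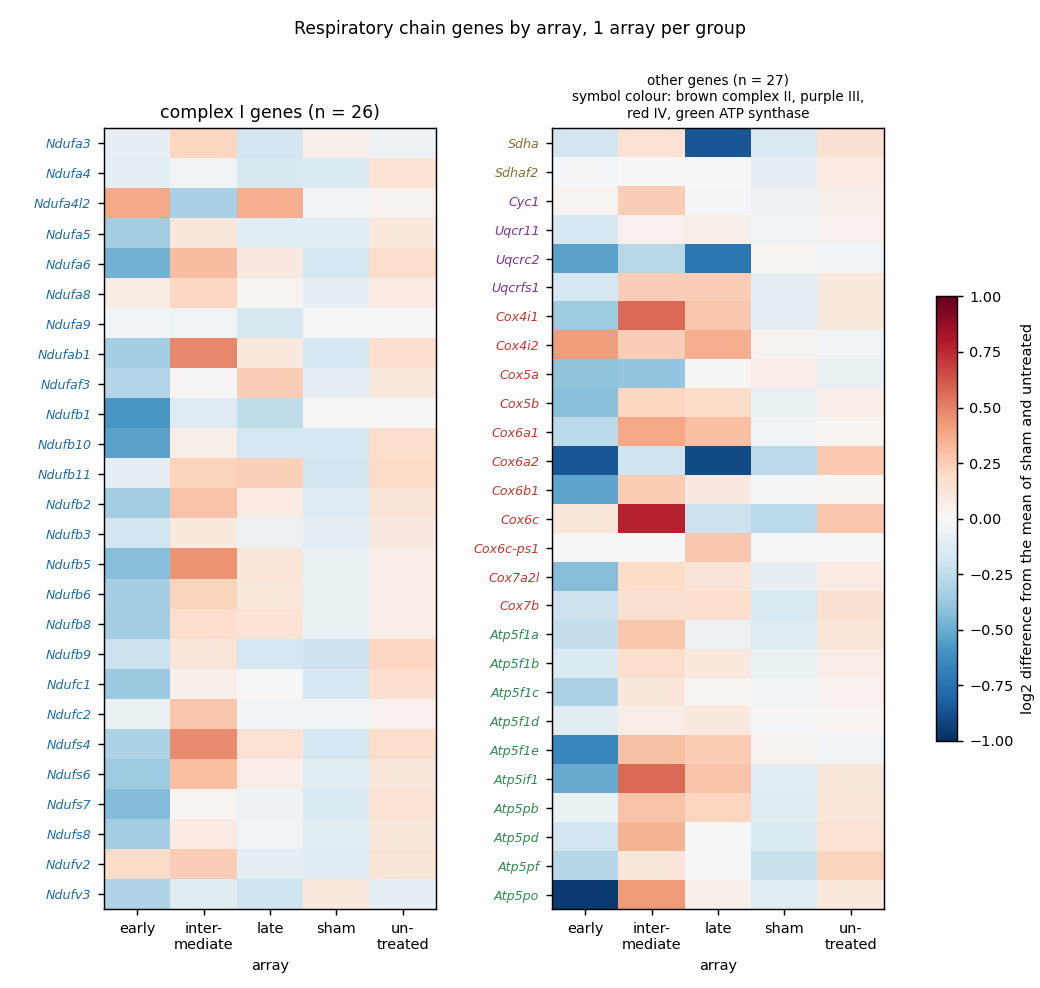
Log2 difference of each of the 53 genes (rows, complex I on the left and the others on the right) on each of the 5 arrays (columns) from the mean of the sham and untreated arrays, with blue for lower and red for higher, 1 array per group. The early column is blue for most genes, with Atp5po at -0.96 as the lowest, the untreated column is mostly redder than the sham column, and Cox4i2 and Ndufa4l2 are red in the early column.

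The exposed arrays also differed among themselves, a comparison that does not use the unexposed arrays. On the early array 40 of 53 genes (75.5%) were lower than on both later arrays, against 41.5% of all genes, with a median of -0.42 from the intermediate array (all genes -0.08) and -0.30 from the late array (all genes -0.04). Bright genes in general were lower on the early array too. The 917 brightest genes had medians of -0.24 and -0.18, against -0.43 and -0.33 for the 43 respiratory chain genes among them. One gene, Atp5po, was at least 2-fold lower than on both later arrays (background 0.709%), and 6 were at least 1.5-fold lower (5.54%): Atp5f1e, Atp5if1, Atp5po, Cox4i1, Cox5b and Cox6b1. The early array was the lowest of all 5 for 37 of 53 genes, or 69.8%, against 23.3% of all genes. The intermediate array was the highest for 30, or 56.6%, against 27.4%, and the untreated array for 11, or 20.8%, against 17.1%. In the other direction, none was 2-fold (background 1.77%) or 1.5-fold (5.4%) higher on the early than on both later arrays. The intermediate array was at least 1.5-fold above both other exposed arrays for Cox6a2 and Cox6c (background 3.16%) and below them for Ndufa4l2 (1.94%), with none past 2-fold (0.436% above, 0.136% below). Over the 5 arrays the median gene of the chain spanned 1.43-fold and 9.43% spanned 2-fold or more, against 1.53-fold and 18.4% of all genes.

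Other measures on the early array are given beside this result. Its 5′ to 3′ ratios were the highest of the 5, as given above. Neutrophil markers, of which 3 of 6 were above the floor, summed to 5928, 5480, 3617, 2567 and 1977, while Cxcr2 stayed under the floor. Cardiac muscle markers, 10 of 12, summed to 23220, 41801, 17145, 34007 and 61708. All 10 were under the unexposed mean on the early array (median -0.98) and lower in the sham than in the untreated pool (median -0.90), so from early to sham to untreated they had the order of the respiratory chain medians. The later arrays differed. There the marker medians were -0.21 (intermediate) and -1.44 (late), against 0.18 and 0.06 for the respiratory chain genes. Alveolar type 2 markers, 4 of 6, summed to 135771, 180083, 176683, 148888 and 135666. The early sum was level with the untreated one, but all 4 markers were lower on the early than on the sham array (median -0.15). Against the untreated array 3 were higher and 1 lower on the early array (median 0.08). Alveolar type 1 markers, 4 of 5, summed to 48407, 39211, 42386, 41714 and 39469, and all 4 were above the unexposed mean on the early array. Such sums weigh the brightest probe sets most: Cav1 alone read 2655, 317, 535, 808 and 783. The part of these measures in the lower reading of respiratory chain genes was not tested. The catalytic subunits made from mitochondrial DNA, which the symbol rule leaves out, were also lower on the early array: COX1, COX2 and COX3 were at 39329, 28243 and 33058 against 46894 to 47696, 32620 to 32962 and 37433 to 40010 on the unexposed arrays. COX1 was lower still on the late array, at 34986. This was not particular to them among very bright genes. Sftpc (48085 against 55179 and 53586) and Eef1a1 (18040 against 20189 and 19454) were lower too, while Sftpa1 and Sftpb lay between their unexposed values.

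At the intermediate times the genes read slightly higher under median scaling, and no more so than other bright genes. Of 53 genes 33 (62.3%) were higher than both unexposed arrays, against 46.1% of all genes, and 6 (11.3%) lower, against 18.8%. Within the 917 brightest genes the share was 30 of 43 (69.8%), against 69.6%, and the median difference there was 0.22 against 0.23. The median over the 53 genes was 0.18 against 0.09 over all genes, but it was 0.01 with the values as deposited and -0.02 with quantile normalization. None was 2-fold higher (background 0.873%) or lower (0.218%), nor 1.5-fold higher (4.75%) or lower (1.58%), than both. ATP synthase had 9 of 10 genes higher, complex IV 7 of 11 and complex I 15 of 26. The highest differences were those of Cox6c (0.77), Cox4i1 (0.56) and Atp5if1 (0.56). Cox6c read 364, 573, 289, 279 and 405, but its other probe set read 164, 193, 229, 289 and 336, which is the reverse on the intermediate array. The lowest were Cox5a (-0.39), Ndufa4l2 (-0.32) and Uqcrc2 (-0.28).

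At the late times the group as a whole was near the unexposed level, with a median of 0.06 against 0.07 over all genes, and this median changed sign with the scaling (-0.06 as deposited, -0.08 with quantile normalization). There were 21 genes higher than both unexposed arrays (39.6%, against 42.8% of all genes) and 10 lower (18.9%, against 20.8%), shares near the background. From the intermediate to the late array 44 of 53 genes (83.0%) were lower, against 49.6% of all genes. Among the brightest genes it was 38 of 43, against 555 of 917. None of the 53 was 2-fold lower (background 1.04%) or higher (0.6%) than both unexposed arrays, and none was 1.5-fold higher (3.05%). Complex IV had 8 of its 11 genes higher and 1 lower, and complex I had 6 of 26 higher and 7 lower. The 8 include Cox6c-ps1, which was above the floor on the late array alone, so its higher late value follows from the floor. At 1.5-fold 3 genes were lower than both (background 3.46%), namely Sdha, Uqcrc2 and Cox6a2. Sdha read 2151 in the late pool against 3501 (sham) and 4347 (untreated), that is 61.4% and 49.5%, after 3440 and 4305 on the earlier arrays. It was the single gene of the chain at least 1.5-fold lower on the late than on both other exposed arrays (background 3.46%); none was 2-fold lower (1.23%), and none was 1.5-fold (1.36%) or 2-fold (0.109%) higher. The late array alone stands apart for Sdha, and its other pools lie within or near the unexposed pair. Uqcrc2, a core protein of complex III, read 1906, 2280, 1675, 2816 and 2715, so each exposed pool was under both unexposed pools. Sdha and Uqcrc2 were each read by 1 probe set made from an expressed sequence tag (EST), a partial cDNA read, so neither value has a second reading.

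**Figure D3:**
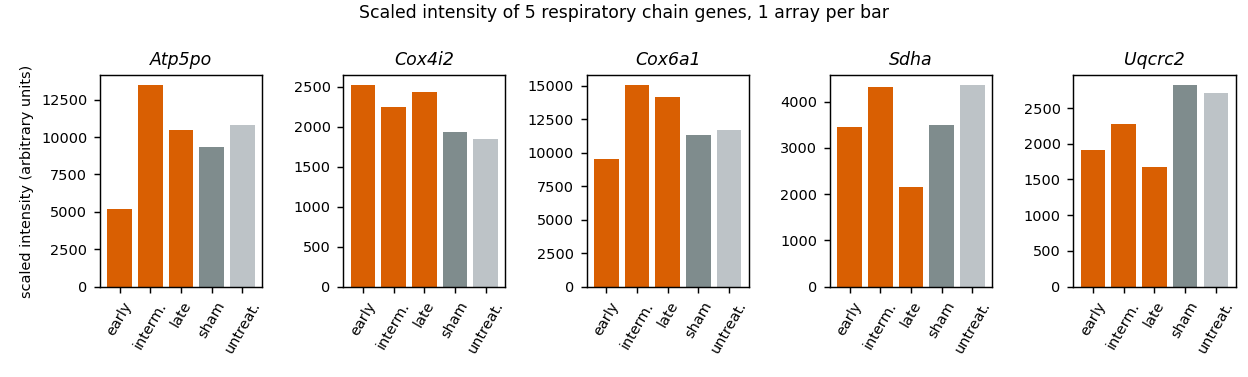
Scaled intensity (arbitrary units, axes from 0) of 5 genes on the 5 arrays, 1 array per bar, with exposed arrays in orange, sham in dark grey and untreated in light grey. Atp5po is lowest on the early array (5159), Sdha on the late array (2151), Uqcrc2 is lower on the 3 exposed arrays, and Cox4i2 is higher on them; with quantile normalization the intermediate value of Cox4i2 no longer lies above both unexposed arrays.

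Exposure averaged over phases was compared in a fit over all genes (limma, 3 exposed against 2 unexposed arrays). With Benjamini-Hochberg adjustment no gene of the chain was called (background 0%), and none of the 3667 was. The smallest adjusted p among the 53 genes was 0.698 in this limma fit. At an unadjusted p under 0.05, Cox4i2 was higher (176 genes higher in all, 4.8%) and Uqcrc2 lower (80 genes lower in all, 2.18%). The limma log2 difference of Cox4i2 was 0.34 with a standard error of 0.13 (unadjusted p = 0.049), and that of Uqcrc2 was -0.51 with 0.18 (unadjusted p = 0.032). Cox6a2 (-0.65), Ndufb1 (-0.32), Ndufv3 (-0.20) and Cox5a (-0.26) followed. Since the phases went in different directions for most genes, their spread is part of the error in this fit. All 3 exposed arrays lay above both unexposed arrays for 1 gene, Cox4i2 (1.89%, against 14.2% of all genes), and below them for 4 (7.55%, against 6.03%): Uqcrc2, Ndufb1, Ndufv3 and Ndufa9, the last with differences of only -0.024 to -0.16. The accessory subunit Ndufv3 read 3117, 3536 and 3346 against 4101 and 3591.

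The tissue isoforms of complex IV differed from their widespread partners. Cox4i2 read 2514, 2241, 2430, 1928 and 1846, with exposed differences of 0.41, 0.25 and 0.37, while Cox4i1 was lower on the early and higher on the later arrays (-0.36, 0.56 and 0.27). Cox4i2 was thus the highest gene of the chain in the early pool, against the direction of the group. It was read by 1 EST probe set, and after quantile normalization its intermediate difference was 0.04. Cox6a2 read 1574, 2482, 1528, 2379 and 3410, and a second probe set read 1094, 2040, 1095, 1373 and 3017. Both probe sets were highest on the untreated array and low on the early and late arrays. Cox6a1, by contrast, read 9548, 15035, 14167, 11319 and 11724, highest on the intermediate array; averaged over its probe sets its intermediate difference was -0.01 in place of 0.38. Cox6a2 was set beside markers of heart muscle. Of 12 such genes 10 were above the floor, and they summed to 23220, 41801, 17145, 34007 and 61708, the same order of arrays as Cox6a2. Atrial and ventricular genes among them include Myh6 (1004, 2124, 817, 1596 and 3115), Tnni3 (2762, 5891, 2164, 4800 and 9341) and Actc1 (6428, 12889, 5085, 9361 and 17201), with Ryr2 under the floor throughout. Single markers did not all follow the order of the sum. Actn2 read 644 on sham against 515 on the intermediate array, and Ckmt2 775 against 725. Nppa read 999 on sham against 1054 on the early array. Skeletal muscle markers, 5 of 7 above the floor, summed to 1873, 2136, 1652, 2286 and 2762 and were mixed. Ckm read 592, 1052, 715, 1017 and 1688, and Tnnt3 read 191, 235, 252, 281 and 288. Acta1 went another way, at 857, 575, 427, 527 and 534. The part of the heart and skeletal muscle markers in the Cox6a2 reading was not tested. Cox8b, the heart, muscle and brown fat form of another complex IV subunit, read 545, 910, 500, 1310 and 2634, and its widespread partner Cox8a read 12854, 18432, 18935, 15215 and 15160. Cox6a2 and Cox8b were both highest on the untreated array and lowest on the late array, while Cox6a1 and Cox8a were both lowest on the early array.

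**Figure D4:**
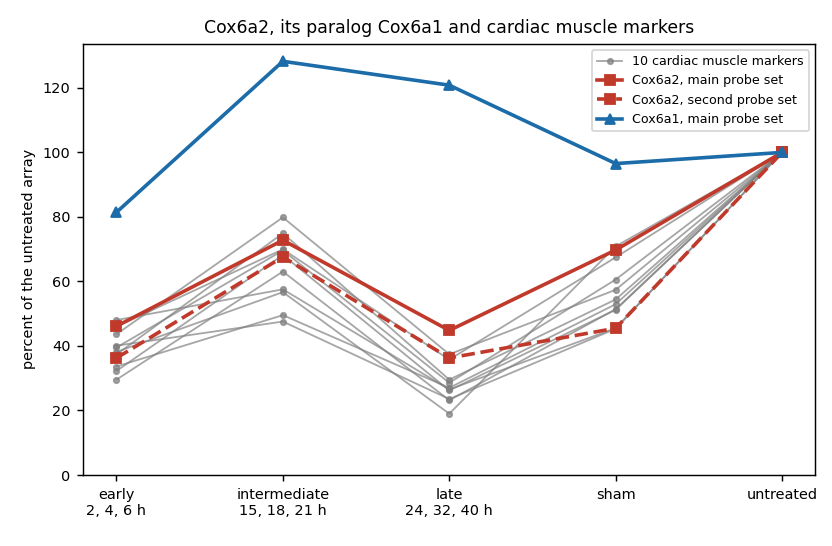
Cox6a2 (red squares, solid for the main and dashed for the second probe set), Cox6a1 (blue triangles) and 10 cardiac muscle markers (grey) as percent of the untreated array on the 5 arrays, 1 array per point; lines only join the points of a gene. By its main probe set Cox6a2 stands at 46.1%, 72.8% and 44.8% in the 3 exposed pools, in order of time. It lies within the band of the markers in the early and intermediate pools and above all 10 of them in the late pool. Cox6a1, at 81.4%, 128% and 121%, lies outside the band.

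Second probe sets gave a further reading of some genes. They are by construction dimmer than the main probe set, which was chosen for its highest mean, and some lay near the floor. Of 25 genes with other probe sets above the floor, the 35 other probe sets had the sign of the main one in 24 cases for the early, 22 for the intermediate and 23 for the late pool. On the early array 21 of the 35 lay under the unexposed mean, against 46 of the 53 main ones and 1899 of all 3667 genes. The share among the other probe sets was thus nearer to that of all genes than to that of the main ones. The genes behind these counts differ, as the 53 include genes read by a single probe set. The other probe sets of Ndufa4l2, whose main one was also higher on the early array, are among those not lower. Differences over 2-fold between probe sets of a gene occurred for 2, Cox6c and Ndufb5, on the intermediate array and for none on the early and late arrays. For the leading early genes the direction held but the size did not: the other probe set of Atp5po read 1799, 2862, 2553, 2570 and 3182, a difference of -0.67, and that of Atp5f1e read 4498 on the early array against 5646 and 5982, a difference of -0.37. Neither was 1.5-fold lower than both unexposed arrays. Second probe sets of Cox6b1 (-0.62), Uqcr11 (-0.67) and Cox5b (-0.40) were lower as well. In the other direction, second probe sets of Cox7a2l (0.51), Ndufa6 (0.36), Ndufb5 (0.34) and Cox4i1 (0.20) read higher on the early array. The genes whose probe sets disagree are therefore uncertain in direction.

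Other mitochondrial genes, taken from lists assembled by function, gave a mixed picture on the early array. The nearest in pattern were fatty acid oxidation genes, with medians of -0.29, 0.12 and 0.11 in the early, intermediate and late pools over 14 of 19 genes measured above the floor. None of the 14 was 1.5-fold away from both unexposed arrays, and the early array was the lowest for 8 (all genes 23.3%). Hadha, which carries out steps of beta-oxidation, read 2906 on the early array against 3279 and 3551. Genes of pyruvate dehydrogenase and the citric acid cycle had medians of 0.01, 0.24 and 0.07 (13 of 24), with none 1.5-fold away, and Mdh2, the malate dehydrogenase of the cycle, read 7321 against 6818 and 7756. Carriers and channels of the inner and outer membrane had -0.07, 0.20 and 0.31 (14 of 18). There the uncoupler Ucp1, known for heat production in brown fat, read 283, 251 and 140 (under the floor) against 566 and 537, at least 2-fold lower than both on the intermediate and late arrays. Chaperones and other upkeep genes read higher, with medians of 0.21, 0.35 and 0.23 (12 of 30). Among them mitochondrial superoxide dismutase, Sod2, read 3065, 1734 and 1070 against 704 and 815, and the chaperonin Hspd1 read 5912, 9903 and 6874 against 5131 and 4910. Remaining respiratory chain genes outside the symbol rule (7 of 21) had medians of -0.10, 0.26 and 0.07. None of these lists held a gene called by limma after adjustment. On the early array, then, genes of electron transport and fat oxidation had negative medians while the citric acid cycle list was level and the upkeep list positive. Those differences between lists were not tested.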

How the data were processed

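Per the labels, equal amounts of lung RNA were pooled for each of 5 one-colour arrays, 1 per group. The authors deposited 1 linear intensity per probe set. Their trimmed means of 1001.38 to 1001.63 show a scaling between arrays, but the labels name no algorithm. No detection calls were used. Of 8799 probe sets, 59 controls were left out. Of the rest 7006 had 1 symbol, 308 had several (7 with a respiratory chain gene) and 1426 were not listed, and the last 2 kinds stayed unnamed. All 96 member probe sets had identifiers in RefSeq GRCr8. Fold rules (2-fold, 1.5-fold) against both unexposed arrays have no test. limma 3.58.1 (lmFit, eBayes) in R 4.3.3 fitted 3667 genes with 3 residual degrees of freedom and a threshold of 0.05. Its p-values measure the spread between arrays, which may be technical. Python 3.11.15 did the rest, and steps were tested on simulated data. The members, the 18 gene lists and the tests were chosen with earlier results of these data known. Named were the 3 highest and 3 lowest genes per exposed array, the 6 smallest p, isoforms, genes whose probe sets disagree and, from each other list, up to 4. Further genes (Atp5f1a, Atp5f1b, Atp5pb, Ndufa9, Ndufb10, Ndufs1, Ndufs7, Sdhaf2, Cox6c-ps1, Cox8a, Hspd1, Myh6, Actc1, Ckmt2, Nppa) were chosen after their values were seen.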

Additional observations from a re-analysis of the deposited data

Results flagged for a closer look

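Respiratory chain genes differed in opposite directions from the same unexposed arrays in different phases. The median log2 difference of the 53 genes was -0.30 on the early and 0.18 on the intermediate array, a gap of -0.48. Against the late array, at 0.06, the gap was -0.35. Each phase has 1 array, so neither gap was tested. The negative early median held under the alternative settings tried, between -0.42 and -0.18, whereas the signs of the intermediate and late medians depend on the scaling.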

How the results depend on the processing

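The early median stayed negative in the settings tried, and limma called no gene of the chain in any of them. The intermediate median was 0.015 with values as deposited and -0.020 with quantile normalization, which move the median of all genes from 0.09 to -0.04 and 0. The late median turned to -0.056 as deposited, -0.0021 with 75th percentile scaling, -0.077 with quantile normalization, -0.0034 with the mean over probe sets, -0.0015 without EST probe sets and -0.053 without the sham array (0.14 without the untreated array). The 5 genes whose exposed and unexposed arrays do not overlap became 14 as deposited, 9 with 75th percentile scaling, 15 with quantile normalization, 8 with the mean over probe sets and 3 of 23 without EST probe sets. Leaving out single arrays, where fewer arrays make overlap rarer, gave 7 to 20. Genes 2-fold lower on the early array numbered 1 with 75th percentile scaling and 2 without sham, against 3 at 1.5-fold. On the late array 2 were lower without sham, against 3 at 1.5-fold, and on the intermediate array 1 was higher without untreated. In settings added after seeing the data, the 33 genes higher on the intermediate array became 21 as deposited, 16 with quantile normalization and 46 without untreated. Without EST probe sets, with 23 genes left, 17 were lower on the early array, 13 higher on the intermediate array, 19 lower on sham than on untreated and 14 lower on the early than on both later arrays. All counts in this paragraph are given without the share of all genes under the same setting. They show how the counts move and are not results about these genes. Causes were not tested. No paired analysis was possible because each group has 1 array. Precision is limited by 5 arrays, and Cox5a, Cox6c and Cox6c-ps1 by signals near the floor.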

Other observations

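Further motifs were counted in the 250 bases upstream of the 45 matched genes, on both strands. The ETS core CCGGAAG was present in 8 (17.8%), against 7.74% of all promoters and 12.2% of those of genes on the array. The YY1 core AAGATGG was present in 3 (6.67%), against 4.63% and 3.76%. The E-box CANNTG was present in 21 (46.7%), against 65.2% and 57.0%. The median GC content was 56.8% in these promoters and 52% in all, and its part in the counts was not tested.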
